A study of Mus musculus with 8 samples.

Results

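The genes of the Mediator complex were examined for occupancy by Chd7 and Chd8, which use ATP to move or restructure nucleosomes, in chromatin immunoprecipitation sequencing (ChIP-seq) peak lists from mouse oligodendrocyte-lineage cells. Members were chosen by name: every RefSeq protein-coding gene of the mm10 build with the symbol Med and a number, together with Med12l, Ccnc, Cdk8 and Cdk19. This gave 32 of 21896 protein-coding genes. The rule uses names only. Paralogues outside it were not analysed here. The cells were O4-positive, sorted magnetically from the cortex and corpus callosum of untreated wild-type mice at postnatal day 7, and the labels call them OPCs, the usual short form for oligodendrocyte precursor cells. The sources used here give neither the strain nor the number of animals behind a library, nor whether the Chd7 replicates came from separate animals. All groups share this source and differ in the antibody and in replicate number. They were 2 Chd7 ChIP libraries (anti-Chd7), 1 Chd8 ChIP library (anti-Chd8), 2 mock libraries (rabbit IgG) and 3 inputs without antibody. The titles number the Chd7 libraries 1 and 2, the Chd8 library 3, the mocks 1 and 2-3, and the inputs 1, 2 and 3. A difference between Chd8 and Chd7 therefore cannot be told apart from one between replicates. Expression was not measured, so the cell label could not be checked against markers.

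Mediator is the large coactivator that links DNA-bound transcription factors to RNA polymerase II at promoters. Its head and middle modules contact the polymerase, its tail receives many activators, and Med14 runs through the core as a scaffold. A separable kinase module, made of Med12, Med13, cyclin C and Cdk8 or paralogues of them such as Med12l and Cdk19, controls the access of the core to the polymerase. In myelinating glia, Med12 is known as a partner of Sox10, the factor that drives myelin genes.

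Chd8 lay within 1 kb of an end of 29 of these 32 genes, beside 40.9% of all genes. Inputs also had peaks at many of them. Chd7 of both libraries lay at 5, beside 4.83% of all genes: Med25, Cdk8, Med21, Med26 and Med17. The sequences upstream of those 5 are shown because peaks of both remodelers lie on them, and that of Med10 as a contrast, since neither remodeler lay at its ends. They are RefSeq promoter windows of GRCm38.p6, which is the mm10 assembly, 250 bases before an annotated start, read 5′ to 3′ on the gene's strand. Capitals mark matches, on either strand, to 5 of 7 short motifs searched in all promoters, described after the peaks. The windows lie at chr7:44892425-44892674 (minus strand), chr5:146231000-146231249 (plus), chr6:146642329-146642578 (plus), chr8:72548311-72548560 (minus), chr9:15279907-15280156 (minus) and chr13:69802120-69802369 (plus). Those of Med25 and Cdk8 belong to an annotated start 281 and 455 bp inside the gene's outer boundary.
Med25: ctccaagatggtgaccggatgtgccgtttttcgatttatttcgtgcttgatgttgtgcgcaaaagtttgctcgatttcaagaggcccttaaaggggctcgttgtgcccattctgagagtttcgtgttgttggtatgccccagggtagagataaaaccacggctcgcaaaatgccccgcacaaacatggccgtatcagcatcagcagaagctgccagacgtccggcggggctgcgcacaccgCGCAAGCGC
Cdk8: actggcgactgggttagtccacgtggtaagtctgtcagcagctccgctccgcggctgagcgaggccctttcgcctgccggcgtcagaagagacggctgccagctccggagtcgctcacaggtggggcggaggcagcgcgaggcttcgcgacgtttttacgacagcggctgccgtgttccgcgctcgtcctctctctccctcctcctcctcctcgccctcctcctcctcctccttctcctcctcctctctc
Med21: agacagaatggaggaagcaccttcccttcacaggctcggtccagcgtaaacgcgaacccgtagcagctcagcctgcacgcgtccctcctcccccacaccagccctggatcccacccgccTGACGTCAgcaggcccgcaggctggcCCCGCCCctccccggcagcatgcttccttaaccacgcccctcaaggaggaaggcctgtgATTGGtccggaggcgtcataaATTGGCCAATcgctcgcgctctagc
Med26: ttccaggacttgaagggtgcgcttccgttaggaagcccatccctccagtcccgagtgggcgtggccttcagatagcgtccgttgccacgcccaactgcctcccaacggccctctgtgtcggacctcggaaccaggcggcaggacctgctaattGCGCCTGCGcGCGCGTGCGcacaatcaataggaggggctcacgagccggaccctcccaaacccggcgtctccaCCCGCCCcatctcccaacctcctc
Med17: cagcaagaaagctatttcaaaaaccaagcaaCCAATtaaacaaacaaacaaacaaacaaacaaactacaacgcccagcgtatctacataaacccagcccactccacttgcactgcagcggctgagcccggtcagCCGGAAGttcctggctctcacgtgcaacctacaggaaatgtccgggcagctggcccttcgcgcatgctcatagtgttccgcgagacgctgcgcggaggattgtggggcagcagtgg
Med10: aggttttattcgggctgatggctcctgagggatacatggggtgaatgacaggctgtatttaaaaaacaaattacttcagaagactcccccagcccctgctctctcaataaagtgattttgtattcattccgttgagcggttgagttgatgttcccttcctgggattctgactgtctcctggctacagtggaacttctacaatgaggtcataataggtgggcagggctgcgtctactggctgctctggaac

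A gene end was either boundary of a gene within 1 kb, and a gene counted as occupied when a peak touched that window. A Chd8 peak lay at an end of 29 of the 32 genes (90.6%, 95% Clopper-Pearson interval 75.0 to 98.0), beside 40.9% of all protein-coding genes. Chd7 replicate 1 had a peak at 8 (25.0%, 11.5 to 43.4), beside 10.4% of all genes, and Chd7 replicate 2 at 14 (43.8%, 26.4 to 62.3), beside 17.0%. Regions where peaks of both Chd7 libraries overlapped were found at 5 (15.6%, 5.28 to 32.8), beside 4.83%. All 5 also had Chd8, as did 1045 of the 1057 genes with such a Chd7 region, and 4.77% of all genes had both. Neither mock had a peak at an end of any member (upper end of the exact interval 10.9%), and 0.0183% and 0.0137% of all genes had one. Counting genes with a peak of each Chd7 library whether or not the peaks overlapped also gave 5, beside 5.45%. These are counts of genes in single libraries without read numbers. The depth is unknown. The intervals treat genes as a sample and cover counting error over genes only, although the 32 genes are the whole named set. Chd8 has no replicate. No test between antibodies was run, and each count stands beside the share of all genes.

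**Figure D1:**
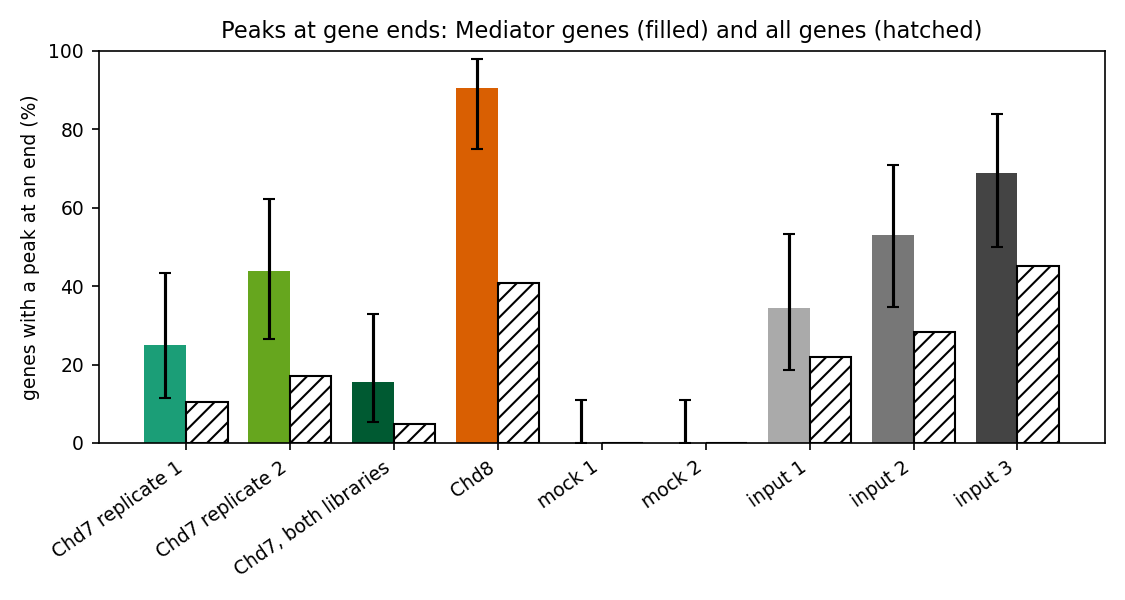
Percentage of genes with a peak within 1 kb of an end, for the 32 Mediator genes (filled bars, with 95% Clopper-Pearson intervals) and all 21896 protein-coding genes (hatched bars), in each peak list. Chd8 stands at 90.6% beside 40.9%, the mocks at 0, and the inputs also have higher bars for Mediator genes, such as 68.8% beside 45.2% for input 3.

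The inputs, which have no antibody, also had peaks at many of these genes. Input 1 had one at 11 (34.4%), input 2 at 17 (53.1%) and input 3 at 22 (68.8%), beside 21.9%, 28.4% and 45.2% of all genes. All 3 had one at 7 (beside 11.0%) and none at 6 (beside 44.9%), while Chd8 together with any input was found at 24 (beside 34.2%). Genes were therefore grouped by how many of the 3 inputs had a peak at an end, a grouping chosen after the values were seen. Among the 6 members without any input peak, 5 had Chd8 (Med27, Med13, Med24, Med6 and Med12, but not Med10), where 14.9% of the 9839 such genes did. With 1 input, 7 of 9 members had Chd8, where 49.3% of all such genes did. With 2 inputs it was 10 of 10, beside 67.7%, and with all 3 it was 7 of 7, beside 83.0%. The Chd7 regions of both libraries lay at members with 1 input (2 of 9, beside 4.38%) or 3 inputs (3 of 7, beside 17.4%), and at none of those with 0 or 2, beside 0.661% and 8.11%. Among members without an input peak, Chd7 replicate 1 lay at Med13 and replicate 2 at Med27, where 2.74% and 3.60% of such genes had one. Replicate 1 lay at 2, 2 and 3 members with 1, 2 and 3 inputs, beside 11.5%, 17.9% and 26.7%. Replicate 2 lay at 5, 3 and 5, beside 16.6%, 31.4% and 48.5%. When peaks overlapping the matching input were taken out, Chd8 remained at 10 members, beside 16.7% of all genes, and Chd7 of both libraries at 2, Cdk8 and Med25, beside 1.75%. The track names inside the files number Chd7 replicate 2 as 3 and Chd8 as 2, which would exchange the inputs matched to them. With inputs matched by those names, an alternative chosen after seeing the data, Chd8 remained at 17, beside 29.1%, and Chd7 of both libraries at 1, Med25, beside 0.758%. The part of the input signal in the ChIP counts was not tested.

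The occupied end was the start of the gene. Strand could be read for 27 members from the promoter table, and 26 of them are over 2 kb long, so that both ends can be told apart. Chd8 lay at the start of 24 of the 26 and at the far end of none, where 44.5% and 3.31% of 15327 such genes had it. Chd7 replicate 1 lay at 7 starts, replicate 2 at 11 and both at 5, again with none at a far end. Over all such genes the shares at starts were 11.3%, 18.4% and 5.47%, and those at far ends were 0.881%, 1.30% and 0.333%. The mocks had none at either end, beside 0.0130% and 0.00652% for mock 1 and 0.00652% and 0.00652% for mock 2. Input 1 lay at 9 starts and 2 far ends (Ccnc and Med17), beside 20.7% and 4.66%. Input 2 lay at 12 starts and 4 far ends, beside 25.9% and 8.04%, and input 3 at 17 and 2, beside 44.5% and 12.7%. The midpoints of the 27 Chd8 peaks at member starts ran from −672 to 414 bp relative to the start, with a median of 82 bp, negative values being upstream. For the members without strand, Chd8 covered the lower boundary of Med8, Med23 and Cdk19 and the upper boundary of Med24. The peak ran over the boundary itself at 26 of the 32 genes, beside 27.1% of all genes.

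**Figure D2:**
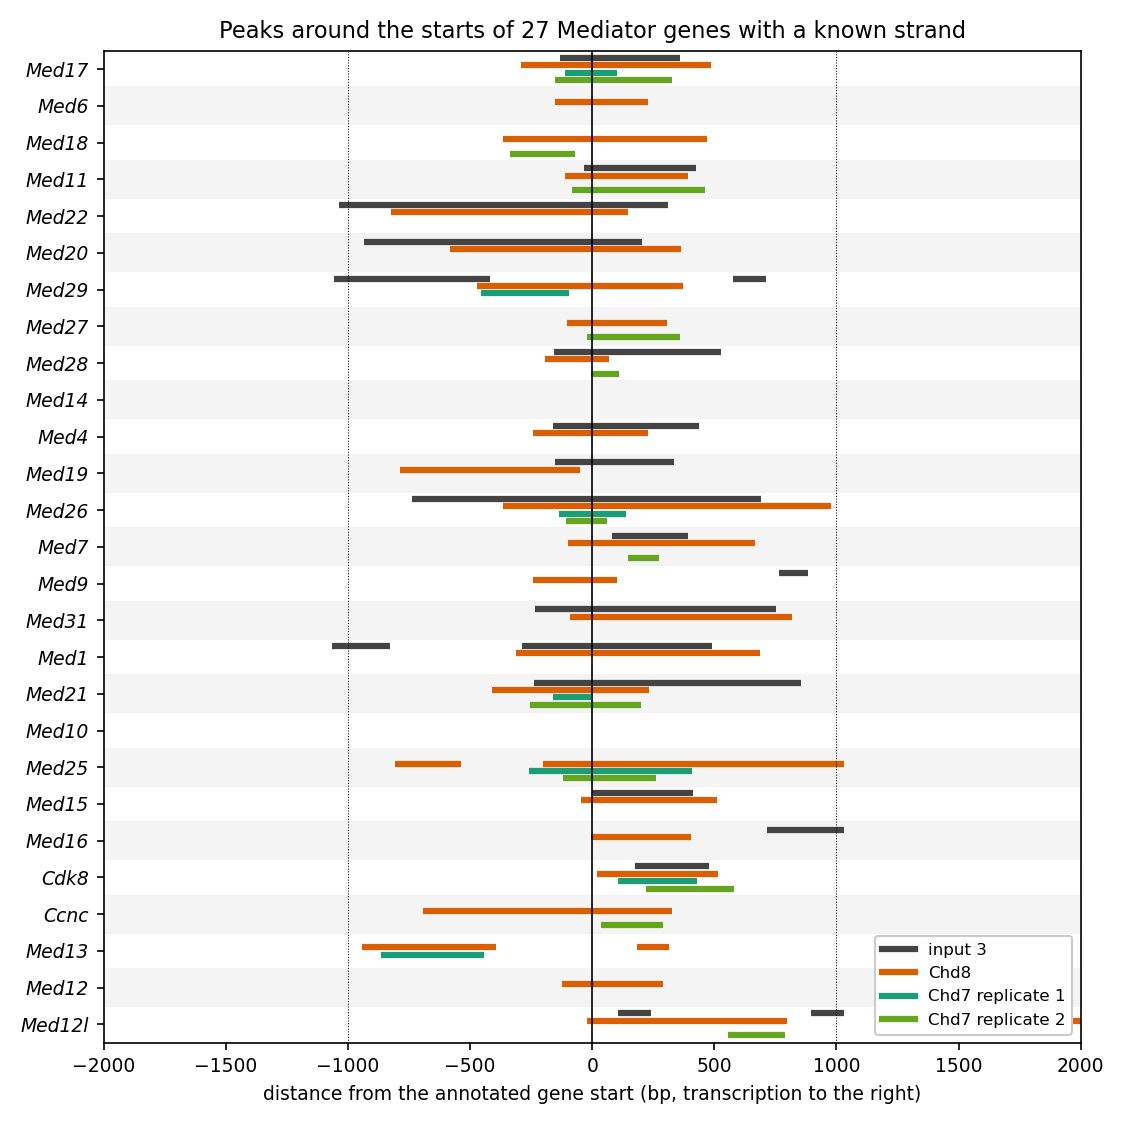
Extent of peaks from 2 kb before to 2 kb after the annotated start (distance in bp, dotted lines at 1 kb) at the 27 members with a strand, for input 3, Chd8 and both Chd7 replicates. Input 3 peaks that touch no gene end within 1 kb are not drawn. Every Chd7 bar overlaps a Chd8 bar, and Med14 and Med10 show none.

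Fold, the authors' value for a peak over the caller's local background, describes each peak below. It depends on depth and caller, so values are comparable within a list only. The lowest fold in the Chd8 list at any gene end was 3.81. The median of the highest Chd8 fold at an end was 5.57 over the 29 occupied members and 4.85 over all 8963 occupied genes. Of the 29, 19 were above that median and 13 above the upper quartile of 5.60. Med25 had the highest with 12.3, rank 18 of the 8963 genes, and Cdk8 followed with 9.41, rank 109. Med23 (7.56), Ccnc (6.96), Med4 (6.91), Med17 (6.60), Med6 (6.27), Med19 (6.25), Med18 (6.15) and Med29 (5.86) completed the 10 strongest. These 10 belong to every module except the scaffold.

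**Figure D3:**
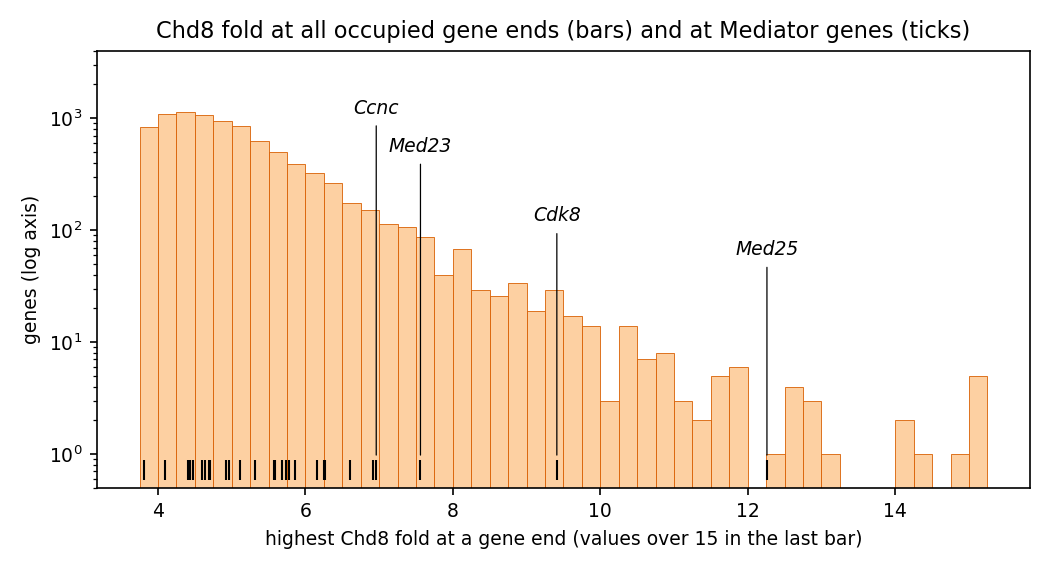
Highest Chd8 fold at an end (x axis) for all 8963 genes with a Chd8 peak there (bars, log count axis, values over 15 in the last bar) and for the 29 Mediator genes (ticks). Med25 at 12.3 and Cdk8 at 9.41 lie in the right tail, while most members lie between 4 and 7.

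In the head module, which meets the polymerase and the general factors, all 7 genes had Chd8 at an end, with folds from 4.43 (Med8) to 6.60 (Med17). Beside this and each later module count of Chd8 stands the same 40.9% of all genes. Inputs are named below for some genes only. In all modules together, 24 members had Chd8 and a peak of any input at an end, beside 34.2% of all genes. Med17, the architectural core of the head, was the one head gene with Chd7 in both libraries. Its Chd7 fold was 4.21 in replicate 1 and 4.02 in replicate 2. The merged Chd7 region at chr9:15279578-15280057 lay inside the Chd8 peak at chr9:15279421-15280197, and all 3 inputs also had a peak there. Replicate 2 alone lay at Med18 (3.50), Med11 (3.21) and Med8 (3.40), where replicate 1 had none. Med18, a partner of Med20 in the movable part of the head, had no input peak under its Chd8 peak, whose fold was 6.15. Med6 (6.27), Med22 (5.68) and Med20 (5.59) had Chd8 without Chd7 at an end. The Med22 peak was shared with the start of Rpl7a, a ribosomal protein gene, and the Med20 peak with an end of Bysl, a ribosome biogenesis gene.

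Of the 4 genes between head and tail, 3 had Chd8. At an end, Med29 had a Chd8 fold of 5.86 and Chd7 in replicate 1 only (4.78). The region was shared with an end of Paf1, which encodes a subunit of the polymerase-associated elongation complex of that name. Med27 (Chd8 5.11) and Med28 (4.43) had Chd7 at an end in replicate 2 only, with folds of 3.13 and 4.26. No input had a peak at an end of Med27, while inputs 2 and 3 had one at Med28. Med30 had no Chd7 or Chd8 peak within 10 kb, and only input 3 had a peak at its end (3.44).

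The scaffold gene Med14, on the X chromosome, had no ChIP peak within 10 kb of the gene. Of the 8 lists, input 2 alone had a peak at its end, with a fold of 3.48. The other X-linked member, Med12, had Chd8 at its start (4.69) with no input peak at either end.

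In the middle module, which like the head contacts the polymerase, 8 of 9 genes had Chd8 at an end, with folds from 4.41 to 6.91. Med21, which forms a hinge with Med7, had Chd7 folds of 5.21 in replicate 1 and 3.44 in replicate 2. Its Chd8 fold was 4.41, below the median of all occupied genes, and all 3 inputs had peaks over the same start. Med26, which is known to bring elongation factors to the polymerase, had 4.15 in replicate 1, 4.57 in replicate 2 and 5.31 for Chd8, over a Chd8 peak at chr8:72547334-72548675 that all inputs shared. Med7 had Chd8 (4.96) and Chd7 in replicate 2 only (3.45). Med4 (6.91), Med19 (6.25), Med9 (4.70), Med31 (4.60) and Med1 (4.48) had Chd8 without Chd7 at an end, the Med19 peak being shared with an end of Tmx2. Med1, the subunit that binds nuclear receptors, had peaks of all 3 inputs at its start. Med10 was the exception: neither end had a peak of any list, and the nearest ChIP peaks, Chd8 with 4.33 and Chd7 replicate 2 with 3.09, lay inside the gene with midpoints 7616 and 7790 bp from the start.

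All 5 tail genes had Chd8. Med25, which binds activation domains such as those of ETS factors, had the strongest site of the complex. Its main Chd8 peak at chr7:44891673-44892908 was 1236 bp wide, with a −log10 q of 17.84, and a second peak of 4.38, shared with an end of Fuz, had its midpoint at −672 bp. Chd7 was there in both libraries, with folds of 4.90 and 3.34 over chr7:44892298-44892965. No input peak touched that Chd7 region, and the input 1 peak at this end (3.99) touched only the Chd8 peak. Med23, another activator-binding subunit, had a Chd8 fold of 7.56 and Chd7 in replicate 2 only (3.18), with all 3 inputs present. Med24 (5.74), Med15 (4.64), which binds sterol-regulatory factors, and Med16 (4.09) had Chd8 without Chd7 at an end. Med24 had no input peak at an end.

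The kinase module had Chd8 at all 6 genes. Cdk8 had 9.41 and Chd7 folds of 5.17 and 3.24, over a Chd7 region at chr5:146230901-146231375, where input 3 also had a peak (3.49). Its paralogue Cdk19 had Chd7 in replicate 1 only, with 5.82, the highest of all members in that list, beside a Chd8 fold of 4.92. Peaks of inputs 2 and 3 overlapped both the Chd7 and the Chd8 peak of Cdk19. Ccnc, the cyclin partner of both kinases, had a Chd8 fold of 6.96 and Chd7 in replicate 2 only (3.93), and peaks of inputs 1 and 2 overlapped both. Med13, which tethers the module to the core, had 2 Chd8 peaks of 5.57 and 5.28 on either side of its start, and the Chd7 replicate 1 peak (4.98) lay on the upstream one, with no input peak. Med12l had the weakest Chd8 fold, 3.81, which is the lowest in the Chd8 list at any gene end, and Chd7 replicate 2 at 3.09. Peaks of inputs 1 and 3 overlapped that Chd8 peak, and no input peak overlapped the Chd7 one. The paralogues Cdk8 and Cdk19 thus had Chd8 folds of 9.41 and 4.92, and Med12 and Med12l had 4.69 and 3.81.

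**Figure D4:**
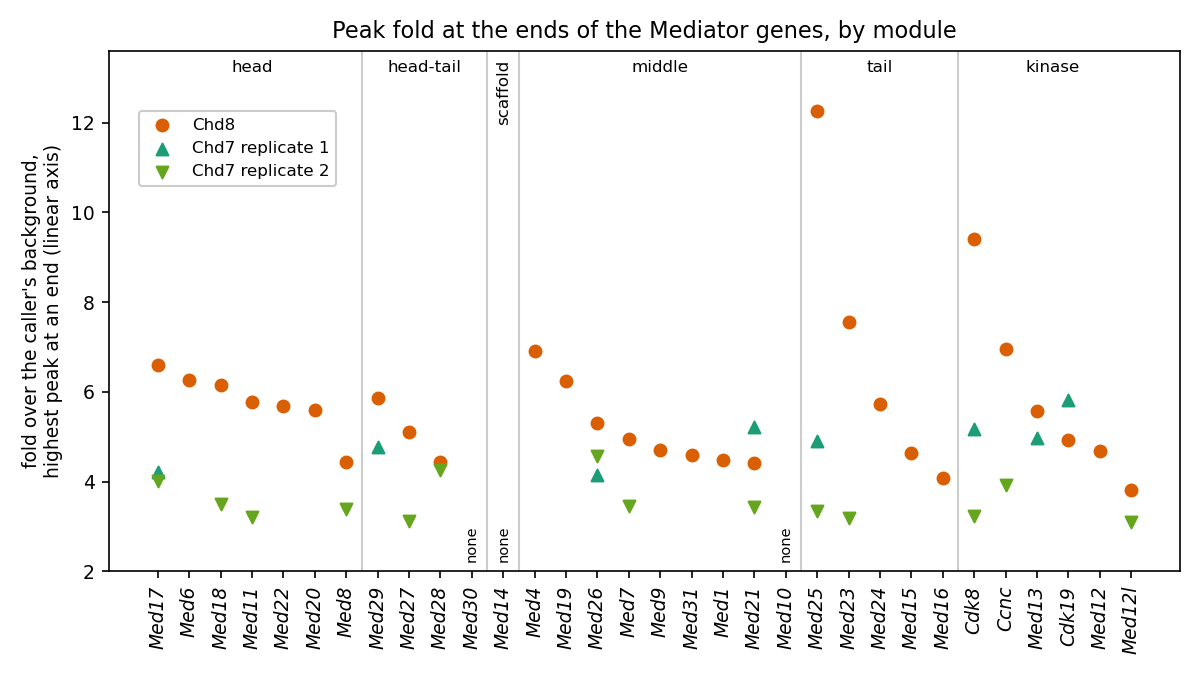
Highest fold at an end of each Mediator gene (linear axis that starts at 2), by module, for Chd8 and both Chd7 replicates. Med25 and Cdk8 have the highest Chd8 values, and Med30, Med14 and Med10 have no Chd8 peak at an end.

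The Chd7 libraries overlapped only in part. Either library had a peak at 17 members, where 21.9% of all genes had one. Of these, 5 were in both, 3 in replicate 1 only (Med29, Cdk19 and Med13) and 9 in replicate 2 only. All 17 also had Chd8 at an end, as did 4371 of the 4803 genes with Chd7 of either library. Of all genes, 20.0% had Chd8 with Chd7 of either library. Chd8 without either Chd7 was found at 12 members, beside 21.0%. Each of the 8 replicate 1 peaks and 14 replicate 2 peaks at members overlapped a Chd8 peak, where 90.7% of 1933 and 83.9% of 3208 such peaks at all gene ends did. The median of the highest Chd7 fold at an end was 4.94 over the 8 members in replicate 1 and 3.42 over the 14 in replicate 2, beside 4.55 and 3.38 over all genes with a peak there. Over the 5 members with both libraries it was 4.21, beside 4.08. In replicate 1, Cdk19 (5.82), Med21 (5.21), Cdk8 (5.17), Med13 (4.98) and Med25 (4.90) were above the upper quartile over all such genes, 4.89. In replicate 2, Med26 (4.57), Med28 (4.26), Med17 (4.02) and Ccnc (3.93) were above that of 3.66. Among the 5 shared genes the −log10 q ran from 1.48 (Med26) to 3.11 (Med21) in replicate 1 and from 1.51 (Cdk8) to 3.59 (Med26) in replicate 2, where the lowest value in the ChIP lists was 1.30. With a −log10 q or a fold of at least 5 no member kept a Chd7 region of both libraries, and 0% and 0.0137% of all genes did. Chd8 then lay at 10 and 17 members, beside 8.28% and 17.8%.

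Within 10 kb of the gene body, Chd8 was found at 30 members (93.8%), beside 56.8% of all genes, the addition being Med10. Chd7 of both libraries was found at 6 (18.8%), beside 8.44%, the addition being Med1. Its region (4.15 in replicate 1, 3.26 in replicate 2) had its midpoint at −9338 bp from the start of Med1, at an end of Cdk12, a kinase of transcription elongation. Replicate 1 had peaks at 11 loci and replicate 2 at 20, beside 21.3% and 29.0%. Input shares at loci were 81.2%, 90.6% and 93.8%, beside 70.0%, 81.9% and 77.9%, and each mock had a peak at 1 locus, Cdk8, beside 0.151% and 0.142%. Chd8 had 29 peaks in the loci of 18 members that were not at an end of the member itself, and 19 of the 29 were at an end of another gene. The same share was not counted over the loci of all genes, so 19 of 29 cannot be called high or low. The Med25 locus held 5 Chd8 peaks, the most of any member. One, with a fold of 7.35, had its midpoint at −3177 bp, overlapped a Chd7 replicate 2 peak (3.65) and lay at no end of another gene. Another lay at Ptov1, where both Chd7 libraries had peaks (4.43 and 3.37) that did not overlap each other. Within Cdk8, a site 18075 bp from the start had Chd7 replicate 1 (4.28) and Chd8 (4.11), and a Chd8 peak of 7.14 lay at the neighbour Rnf6. Far inside Med27, 102018 bp from its start, Chd7 replicate 1 (5.09) and Chd8 (4.28) overlapped with no peak of any input.

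**Figure D5:**
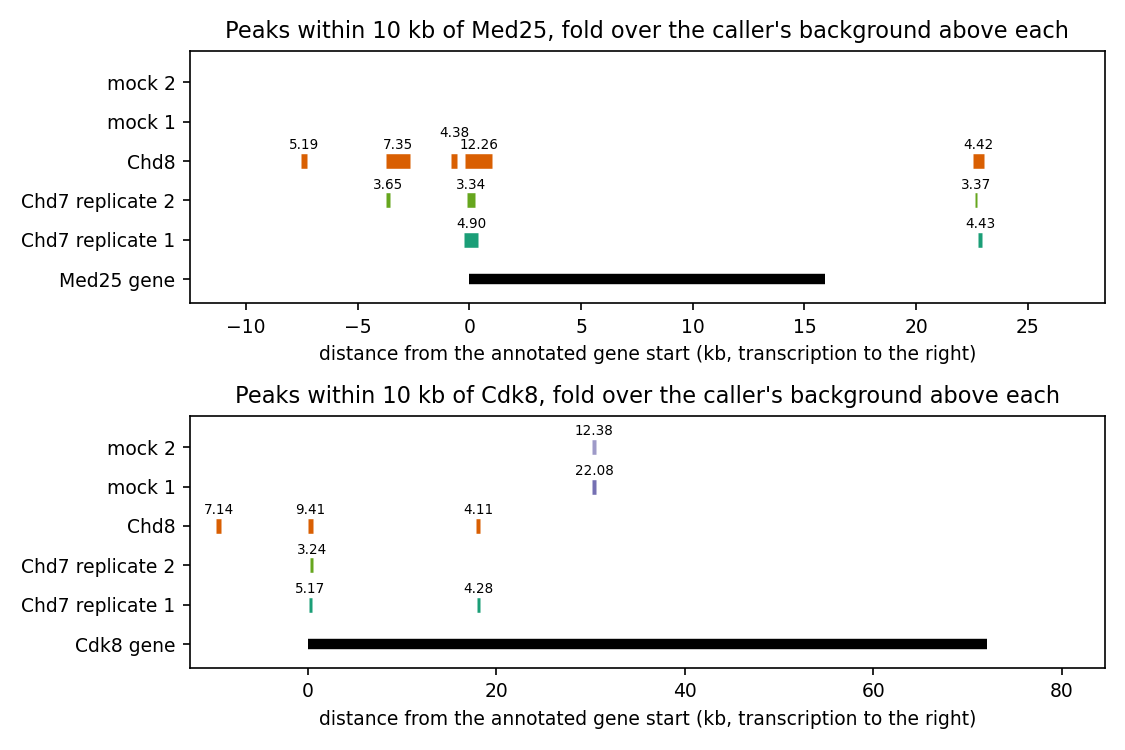
Peaks within 10 kb of Med25 and Cdk8 against the distance from the gene start (kb), with the fold printed above each; inputs, and ChIP peaks removed because they touch a mock peak, are not drawn. Both genes have Chd8 and both Chd7 replicates at the start, and only Cdk8 has mock peaks, inside the gene.

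The promoter windows of 300 bases, 250 before and 50 after an annotated start, were available for 27 members and 17491 genes. A Chd8 peak touched 23 of the 27, beside 35.7% of all windows, and Chd7 of both libraries touched 5, beside 4.70%. CpG observed over expected, a measure of how far CpG pairs have been retained, had a median of 0.839 over the members and 0.577 over all windows. All windows under a Chd8 peak had a median of 0.809, and those without one 0.311. Of the 23 members with a ratio of at least 0.6, a split chosen after the values were seen, 20 had Chd8 on the window, where 62.4% of 8465 such windows did. Of the 4 members below it 3 did, beside 10.8%, and those 3 lay just under the split (Med31 0.541, Med11 0.588 and Med15 0.593). Med10, printed above, had the lowest ratio of all members, 0.239, with 4 CpG pairs in its 250 upstream bases. The other printed sequences had 25 for Cdk8, 22 for Med26, 19 for Med25, 18 for Med21 and 14 for Med17. Few pairs were not particular to Med10: Med15 had 4 and Med16 had 3, and a Chd8 peak touched both of their windows. CpG content was not low at Med14, another gene without Chd8, whose ratio was 0.909 in a window 621 bp inside its outer boundary. The windows of Med13 (0.937) and Med12l (0.843) held no Chd8 peak either, although both genes had one within 1 kb of an end.

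The motifs were GCGCNTGCG (NRF1), CCGGAAG (ETS), AAGATGGCG (YY1), TGACGTCA (CRE), CCAAT (NFY), CCCGCCC (SP/KLF) and, for the TATA box, TATAAA. Both strands were searched, and positions give the distance from the start to the first letter of the match. The NRF1 letters were found in 6 of 27 member windows (Med4, Med11, Med15, Med18, Med25 and Med26), beside 9.02% of all windows. The ETS letters were found in 7, beside 11.9%. The CRE letters were found only in Med21 among the members, beside 2.33%, and the YY1 letters in none, beside 1.92%. CCAAT was found in 11 (beside 39.2%), CCCGCCC in 9 (34.0%) and TATAAA in 3 (13.3%). In the printed sequences, Med25 has 1 NRF1 match, 9 bases before the start, and Med26 has 2 at 97 and 87 bases, which do not overlap, and a CCCGCCC match at 24. Med17 has an ETS match 116 bases and a CCAAT match 219 bases before the start. Med21 has the CRE match at 131 bases, CCCGCCC at 105 and CCAAT matches at 46, 25 and 20. No motif was found in the upstream bases of Cdk8 or Med10. A match describes the letters only.

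Other parts of the initiation machinery were counted in the same way from 4 lists of 55 genes. Chd8 lay at 48 of them: 11 of 12 RNA polymerase II subunits, 16 of 18 general initiation factors, 10 of 13 TFIID subunits and 11 of 12 pause release factors, beside 40.9% of all genes. Those without it were Polr2g, Gtf2a2, Mnat1, Taf1, Taf10, Taf11 and Nelfcd. Chd7 of both libraries lay at 4: Polr2a, the catalytic subunit of the polymerase, Polr2i, the TATA-binding protein gene Tbp and Nelfa, a subunit of the negative elongation factor, where 4.83% of all genes had it. Chd7 replicate 1 lay at 11 and replicate 2 at 22 of the 55, beside 10.4% and 17.0% of all genes. The inputs also had peaks at 20, 31 and 46 of the 55, beside 21.9%, 28.4% and 45.2%, and the mocks at 0.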

How the data were processed

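ChIP-seq peak lists of 8 libraries were used. Bowtie2, SAMtools, Picard and MACS and the mm10 build are named in the submitters' processing notes, with no version, setting or control for peak calling stated. Columns hold, per the file headers and layout, a score per peak deposited by the authors (10 times the −log10 q), the fold over local background, which is a ratio as the authors deposited it, and the −log10 p and −log10 q computed by the authors. Extraction notes name the O4 antibody for the complexes, while each sample's own label names its ChIP antibody; the latter was used. Track names number Chd7 replicate 2 as 3 and Chd8 as 2, unlike the titles, which would exchange the inputs matched to them.

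ChIP peaks touching a mock peak by at least 1 bp were removed, leaving 5218 and 6237 Chd7 and 18350 Chd8 peaks. Overlapping peaks of both Chd7 replicates were merged into 1383 regions. Genes and promoters came from RefSeq tables of GRCm38.p6; all 32 members matched by symbol, and 27 had a promoter and strand. Exons are not annotated there. Counts over all protein-coding genes are the background. Members, lists and motifs were chosen with earlier results of these data known. All members are named. Those with Chd7 at an end, the 10 highest Chd8 folds and those without Chd8 at an end are given with values. Peaks elsewhere in a locus are given for some members only. Counting was tested on simulated data. Python 3.11.15, pandas 2.3.3 and scipy 1.17.1 were used.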

Additional observations from a re-analysis of the deposited data

How the results depend on the processing

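Counts of members with Chd7 of both libraries at an end (5), Chd8 at an end (29), both at an end (5), Chd7 of both libraries within 10 kb (6) and Chd8 within 10 kb (30) were recomputed. Keeping mock-touching peaks, leaving out sex chromosomes, a gene-end window of 5 kb or none and a locus window of 5 kb left every count within 1.5 times. In the same order, the counts were 0, 10, 0, 0 and 11 with a −log10 q of at least 5 (0.0%, 8.28%, 0.0%, 0.00913% and 13.2% of all genes). With a fold of at least 5 they were 0, 17, 0, 0 and 18 (0.0137%, 17.8%, 0.0137%, 0.0502% and 28.0%). With peaks of the matching input removed they were 2, 10, 1, 3 and 19 (1.75%, 16.7%, 0.58%, 3.7% and 34.0%), and with peaks of any input removed 1, 8, 1, 1 and 18 (0.539%, 13.1%, 0.438%, 1.57% and 29.6%). There Med25 kept its Chd7 region, while its Chd8 peak was the weaker one of 4.38. With inputs matched by track number, chosen after seeing the data, the first 4 were 1, 17, 1 and 1 (0.758%, 29.1%, 0.557% and 1.97%). A reciprocal overlap of 50% gave 3, 3 and 4 for the Chd7 counts (1.72%, 1.71% and 3.37%). Each Chd7 library alone gave 8 to 14 at ends (10.4% to 17.0%), also together with Chd8 (9.99% to 15.3%), and 11 to 20 within 10 kb (21.3% to 29.0%), the higher value being without replicate 1. No paired analysis was possible because the results are counts from peak lists and come from no test; matched inputs were used only to remove peaks. Depth is unknown, so a missing peak is not absence of binding.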

Other observations

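A site inside Cdk8, at chr5:146260989-146261350 in mock 1, had a peak in all 8 lists. Its fold was 22.08 and 12.38 in the mocks, 29.21, 29.89 and 52.41 in inputs 1, 2 and 3, 21.03 and 29.31 in Chd7 replicates 1 and 2 and 29.2 for Chd8. The ChIP peaks there touch the mock peaks, so they were removed and entered no ChIP count except where mock-touching peaks were kept. The mock peaks there gave the 1 locus counted for each mock.

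Some neighbours that share a peak with a Mediator gene or lie in its locus also act in transcription. They were picked by eye after their values were seen. Besides Paf1 and Cdk12, a Chd8 peak of 6.36 in the Med13 locus lay at an end of Ints2, an Integrator subunit gene. The strongest Chd8 peak in a Mediator locus outside a gene end of the member had a fold of 9.50 and lay 15052 bp from the start of Med4, near an end of the long non-coding RNA gene Gm41209, where input 3 also had a peak.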
